A study of Mus musculus with 18 samples.

Results

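10 genes of the Notch pathway were followed in 2 sorted cell populations of mouse ear skin, stem cells of the hair follicle bulge (HF-SC) and basal keratinocytes (b-KC): the receptors Notch1, Notch2 and Notch3, the ligands Jag1, Jag2 and Dll1, the nuclear factor Rbpj, and the targets Hes1, Hey1 and Nrarp. They were the rows with these 10 symbols among the 23951 genes of the deposited table, and all 10 reached the level needed for testing, as did 12751 genes in all. The table holds 18 poly(A) RNA-seq libraries in 6 groups of 3 mice, with values in FPKM (fragments scaled by transcript length and by mapped reads). DKO* mice, a psoriasis-like model, were JunB f/f c-Jun f/f and carried K5-Cre-ERT, a tamoxifen-inducible Cre under the promoter of the basal keratinocyte gene keratin 5, and the mT/mG reporter, which switches a cell from Tomato to GFP when Cre has acted. Control mice (Co) carried the same K5-driven Cre and reporter with wild-type or heterozygous floxed JunB and c-Jun, and the sources used here do not say which control animal had which genotype. All mice, males and females of mixed background, received 4 daily intraperitoneal injections of 2 mg tamoxifen at 8 weeks of age, and ears were taken on day 7. Live single CD45- CD49f high cells were sorted as CD34+ (HF-SC) or CD34- (b-KC), and in DKO* mice each was further split into GFP+ (mutant) and Tomato+ (non-mutant, here Tom) cells. The 4 DKO* groups came from the same mice (814, 815 and 817), and both control groups from mice 810, 825 and 828.

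Notch receptors are activated by ligands on neighbouring cells. Cleavage by ADAM metalloproteases and then by γ-secretase frees the intracellular domain, which enters the nucleus, binds RBPJ and recruits coactivators of the Mastermind family to target genes such as Hes1, Hey1 and Nrarp. In the epidermis the pathway is best known for promoting the passage of basal keratinocytes into the spinous layers, and DLL1 is known as a ligand of basal cells.

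Sequence before the gene start was available in RefSeq (build GRCm38.p6) for 8 of the 10 genes, as 10 entries, and not for Hes1 and Hey1. The 250 bases upstream of each start were searched on both strands for TGANTCA, the core site of the AP-1 factors to which c-JUN and JUNB belong, and for TGGGAA, the core site of RBPJ. The first occurred in 6.75% and the second in 21.6% of all 32851 upstream windows of that length. Among the members, TGANTCA was found once, in the more distal of the 2 Dll1 entries, and TGGGAA only in Rbpj. The 2 Rbpj windows overlap, and the match at chr5:53590281-53590286 lies in both, so that Rbpj held 2 separate matches. No match of one word overlapped a match of the other. Both windows are shown with the matches in capitals, 5′ to 3′ on the strand of the gene, beside that of Nrarp, the member with the smallest adjusted p in both HF-SC comparisons with controls, which held neither word. A match in this window is a description of the letters and not evidence of binding.
Dll1 (chr17:15376933-15377182, minus strand): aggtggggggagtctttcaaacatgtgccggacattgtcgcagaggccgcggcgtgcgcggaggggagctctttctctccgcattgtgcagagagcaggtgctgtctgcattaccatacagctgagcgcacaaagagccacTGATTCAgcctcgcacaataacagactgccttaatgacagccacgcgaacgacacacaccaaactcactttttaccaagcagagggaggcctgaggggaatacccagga
Rbpj (chr5:53590096-53590345, plus strand): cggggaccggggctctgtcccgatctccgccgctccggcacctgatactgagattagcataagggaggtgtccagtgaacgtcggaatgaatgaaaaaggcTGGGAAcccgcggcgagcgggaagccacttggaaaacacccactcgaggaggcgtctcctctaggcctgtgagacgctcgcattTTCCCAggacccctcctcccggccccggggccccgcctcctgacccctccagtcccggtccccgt
Nrarp (chr2:25180508-25180757, plus strand): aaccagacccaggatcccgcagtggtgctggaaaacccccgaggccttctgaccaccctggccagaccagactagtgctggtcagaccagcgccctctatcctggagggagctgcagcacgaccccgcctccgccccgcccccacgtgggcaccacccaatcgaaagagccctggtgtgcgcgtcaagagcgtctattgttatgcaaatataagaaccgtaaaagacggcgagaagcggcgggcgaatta

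In the build used for mapping (NCBI37/mm9), the receptors lie at chr2:26313423-26372183 (Notch1), chr3:97817461-97954290 (Notch2) and chr17:32257765-32303825 (Notch3). The ligand genes are at chr2:136907192-136942380 (Jag1), chr12:114146801-114167706 (Jag2) and chr17:15504318-15513836 (Dll1), and Rbpj is at chr5:53947018-54048684. The target genes are short, at chr16:30064470-30067882 (Hes1), chr3:8663362-8667039 (Hey1) and chr2:25036278-25038850 (Nrarp). FPKM values summarise reads over the whole gene.

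The deleted genes were low where the labels place the mutation. Jun was at 836 to 1086 FPKM in HF-SC Co, 30.5 to 88.4 in HF-SC GFP and 308 to 614 in HF-SC Tom, and at 876 to 1000, 29.6 to 65.4 and 163 to 400.4 in the corresponding b-KC groups. Tom cells therefore lay between both other groups for Jun, and the order was the same for Junb. Of 10 bulge markers, 8 were higher and 0 lower in HF-SC Co than in b-KC Co, where 24.6% of all genes tested were higher and 27.3% lower. However, 1 library of HF-SC Co listed Krt15 at 0, and 3 b-KC libraries of DKO* mice listed Krt14 at 0. No member was listed at 0. The low values of the table implied 16518400 to 26258200 reads per library, which puts 3 reads on a transcript of 1 kb at 0.114 to 0.182 FPKM. The libraries of HF-SC Tom stood apart by endothelial RNA: the sum of 12 endothelial markers was 437.5 to 1461 FPKM there, 52.8 to 85.0 in HF-SC Co, 2.02 to 30.7 in HF-SC GFP and at most 11.1 in any b-KC library.

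The first comparison asked how the pathway differs between the compartments in control skin. HF-SC Co had lower levels of the targets Hes1 and Nrarp, of all 3 receptors and of Dll1 than b-KC Co, and higher levels of Jag1, Rbpj and Hey1. In all, 9 of the 10 genes passed an adjusted p of 0.05, 3 higher and 6 lower in HF-SCs, where 51.9% of all genes tested passed (24.6% higher and 27.3% lower). Differences below are log2 differences of FPKM + 1 with their SE, from limma fitted to all genes, which understate the change of low genes.

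Hes1, a transcriptional repressor and the classical Notch target, was at 17.1, 19.2 and 13.7 FPKM in HF-SC Co (mice 810, 825 and 828, the order used for control values throughout), and at 65.8, 67.3 and 55.2 FPKM in b-KC Co. The 2 groups were far apart in every mouse, with a log2 difference of -1.86 ± 0.21 (SE, adjusted p = 2.34e-06). Nrarp, a target that feeds back on the Notch nuclear complex, was at 6.76, 7.53 and 6.76 FPKM in HF-SC Co and 32.1, 32.2 and 27.5 FPKM in b-KC Co. It was thus 0.229 times as abundant in HF-SCs, a log2 difference of -1.98 ± 0.16 (adjusted p = 9.69e-08). The third target went the other way: Hey1, a repressor related to Hes1, was at 2.12, 1.53 and 1.36 FPKM in HF-SC Co and 0.586, 0.661 and 0.578 FPKM in b-KC Co, with no overlap (0.72 ± 0.18, adjusted p = 0.00355). Hey1 reached 1 FPKM, the level for testing, only in HF-SC libraries. The difference was called in each of 14 alternative fits, among them that without the filter (highest adjusted p of limma 0.0495). Hey1 had the lowest mean of the members in every group but HF-SC Co, where Notch3 was lower, with 4.99 to 137 reads implied per library.

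Notch3 had the largest difference of the members between the compartments. It was at 0.675, 1.23 and 0.703 FPKM in HF-SC Co and 9.70, 6.56 and 10.2 FPKM in b-KC Co, a ratio of means of 0.0986 (log2 difference -2.38 ± 0.28, adjusted p = 4.23e-06). Notch2 was at 4.30, 4.89 and 5.22 FPKM in HF-SC Co against 9.14, 10.4 and 10.5 FPKM in b-KC Co (-0.93 ± 0.19, adjusted p = 0.000741). Notch1, the main receptor of the epidermis, was at 13.5, 14.8 and 12.4 FPKM in HF-SC Co against 30.3, 27.2 and 30.0 FPKM in b-KC Co. Its difference of -1.06 ± 0.39 had an adjusted p of 0.0349, which rose to between 0.0649 and 0.151 without mouse 810, 815, 825 or 828 and to 0.0588 without the filter on low values.

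The ligands differed in direction. Dll1 was at 8.15, 11.01 and 8.02 FPKM in HF-SC Co and 25.9, 31.2 and 32.7 FPKM in b-KC Co (-1.63 ± 0.23, adjusted p = 2.86e-05), whereas Jag1 was higher in HF-SC Co, at 28.5, 38.0 and 34.6 FPKM against 14.9, 16.6 and 18.4 FPKM. The Jag1 difference of 0.97 ± 0.33 had an adjusted p of 0.0222, and of 0.0762 to 0.125 without mouse 810, 825 or 828. Jag2, the most abundant ligand in each group mean, was at 42.0, 60.5 and 55.0 FPKM in HF-SC Co and 84.0, 92.7 and 92.2 FPKM in b-KC Co. These ranges did not overlap but the difference of -0.78 ± 0.36 missed the threshold (adjusted p = 0.0801). With the mouse as a random block it was called (adjusted p = 0.0158), and with the mouse as a fixed term as well (adjusted p = 0.000634). Rbpj, the DNA-binding partner through which all receptors act, was at 22.1, 20.1 and 22.2 FPKM in HF-SC Co and 12.3, 11.2 and 11.5 FPKM in b-KC Co (0.83 ± 0.17, adjusted p = 0.000826). It was therefore higher in the compartment in which Hes1 and Nrarp were lower.

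**Figure D1:**
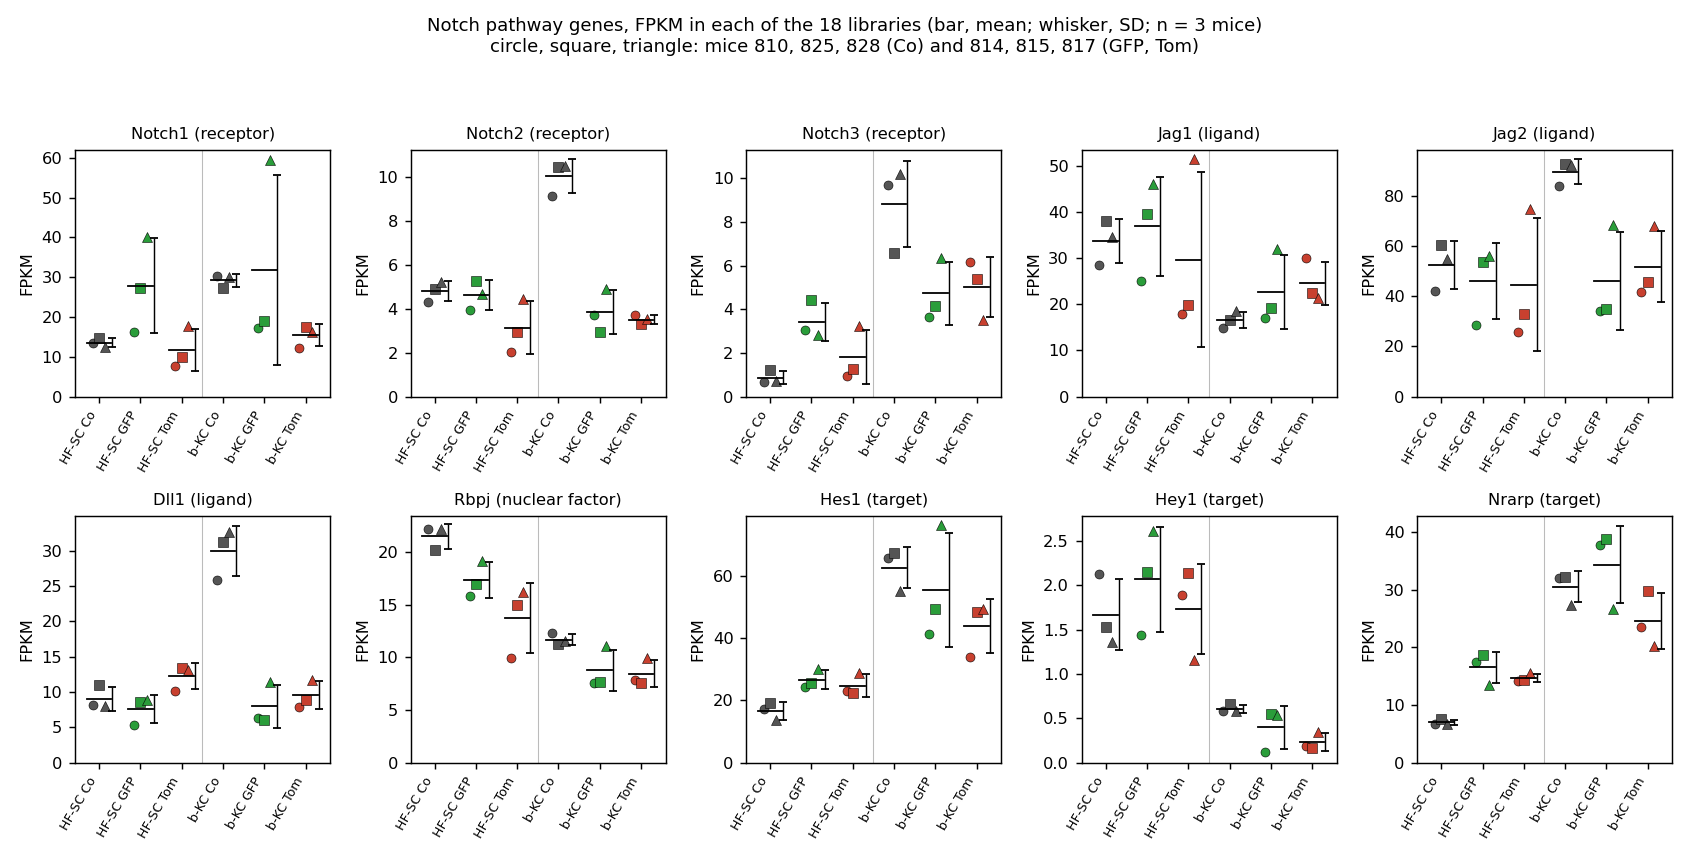
FPKM of the 10 genes in each of the 18 libraries, 1 panel per gene, with the group mean as a bar and the SD as a whisker (n = 3 mice). Hes1, Nrarp, Notch3 and Dll1 are low in all 3 HF-SC Co libraries and high in all 3 b-KC Co libraries, and in the b-KC libraries of DKO* mice Dll1 lies at 6.01 to 11.7 FPKM against 25.9 to 32.7 FPKM in b-KC Co.

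The next comparison asked what changed in mutant HF-SCs. Notch3, Hes1 and Nrarp rose in HF-SC GFP, and no member fell: 3 of 10 genes were called, where 38.5% of all genes tested were called (18.5% higher and 20% lower). Nrarp was at 17.5, 18.7 and 13.5 FPKM in HF-SC GFP (mice 814, 815 and 817, the order used for DKO* values throughout). All 3 were above the highest HF-SC Co library (7.53 FPKM), and the mean was 2.36 times that of controls (log2 difference 1.12 ± 0.16, adjusted p = 7.02e-05). Notch3 was at 3.05, 4.42 and 2.80 FPKM, again above every control library, with a mean 3.93 times as high (1.24 ± 0.28, adjusted p = 0.00265). Hes1 was at 24.5, 25.7 and 30.1 FPKM against at most 19.2 FPKM in controls (0.66 ± 0.21, adjusted p = 0.0193). The Hes1 call ended without mouse 815 (adjusted p = 0.0742) or mouse 828 (0.104).

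Notch1 was at 16.3, 27.2 and 40.1 FPKM in HF-SC GFP, above the 12.4 to 14.8 FPKM of controls but with a wide spread (0.91 ± 0.39, adjusted p = 0.0814). It was called with the mouse as a random block (adjusted p = 0.0459), in a fit to the 2 groups alone (adjusted p = 0.0368), without mouse 814 (adjusted p = 0.0265) and without mouse 817 (adjusted p = 0.0182). The ligands overlapped with controls: Jag1 was at 25.0 to 46.0 FPKM, Jag2 at 28.7 to 56.1 FPKM and Dll1 at 5.28 to 8.90 FPKM, with log2 differences of 0.09 ± 0.33, -0.23 ± 0.36 and -0.24 ± 0.23. Notch2 (3.92 to 5.27 FPKM) and Hey1 (1.44 to 2.61 FPKM) also overlapped with controls. Rbpj was at 15.8, 16.9 and 19.2 FPKM, below every control library, with a difference of -0.30 ± 0.17 (adjusted p = 0.177) that was called only without mouse 817 (-0.37, adjusted p = 0.0392). Without mouse 817 there were 5 calls, 4 higher and 1 lower, where 51.5% of all genes were called.

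The genes that rose in HF-SC GFP are among those that were higher in b-KC Co than in HF-SC Co, and some markers of spinous keratinocytes rose in the same group. Of 7 spinous markers, 4 rose in HF-SC GFP and none fell, and 7 were lower in HF-SC Co than in b-KC Co, where 27.3% of all genes were. Their summed level was 829.5 to 1064 FPKM in HF-SC Co, 1828 to 3622 FPKM in HF-SC GFP, 1725 to 2137 FPKM in HF-SC Tom and 7244 to 8954 FPKM in b-KC Co. In HF-SC GFP of mice 814, 815 and 817 the sum was 3622, 3240 and 1828 FPKM. Nrarp and Notch3 were also lowest in mouse 817 there, whereas Hes1 was highest in it. In HF-SC Tom 3 spinous markers rose and 2 fell. Over all genes tested, 18.5% rose and 20% fell in HF-SC GFP, and 22.3% rose and 22.1% fell in HF-SC Tom. Of 10 bulge markers, 6 fell in GFP HF-SCs (median log2 difference over the list -0.92) and 6 in Tom HF-SCs (-1.06). Of 12 endothelial markers, 7 fell in HF-SC GFP. Of 8 leukocyte markers 4 were tested, of which 3 rose in HF-SC GFP and 2 in HF-SC Tom, at a summed level of 2.0 to 2.52 FPKM in HF-SC Co, 4.51 to 15.1 FPKM in GFP and 4.47 to 10.8 FPKM in Tom cells. Apart from Coro1a in HF-SC Co of mouse 828 (1.13 FPKM), these 4 reached 1 FPKM, the level for testing, only in DKO* libraries. Their rises over controls are thus in part set by the filter. Of 5 melanocyte markers, 3 rose and 1 fell in HF-SC GFP, at a summed level of 18.1 to 22.5 FPKM in HF-SC Co and 11.3 to 19.9 FPKM in GFP cells. Tyrp1 and Mlana of this list likewise reached 1 FPKM only in DKO* libraries. The part of any of these lists in the rises of Notch3, Hes1 and Nrarp was not tested. In such sorted bulk samples, fewer cells of a type and less RNA per cell cannot be told apart.

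In non-mutant HF-SCs of the same mice, 2 members rose and 2 fell against controls, where 44.4% of all genes tested were called (22.3% higher and 22.1% lower). Nrarp was at 14.2, 14.3 and 15.5 FPKM in HF-SC Tom, a narrow range with every library above controls (0.97 ± 0.16, adjusted p = 0.000199). Hes1 was at 23.0, 22.3 and 29.0 FPKM, also above every control library (0.55 ± 0.21, adjusted p = 0.0421). This call ended without mouse 810, 815 or 828 (adjusted p from 0.0836 to 0.181), without the filter on low values (0.0578) and in a fit to the 2 groups alone (0.0551).

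Rbpj fell in HF-SC Tom. It was at 9.95, 14.98 and 16.2 FPKM against 20.1 to 22.2 FPKM in HF-SC Co (-0.64 ± 0.17, adjusted p = 0.00697), and without mouse 814 the difference was -0.44 (adjusted p = 0.0502). Notch2 was at 2.04, 2.94 and 4.44 FPKM, overlapping the control range of 4.30 to 5.22 FPKM through mouse 817 (-0.53 ± 0.19, adjusted p = 0.0338). The Notch2 call ended without any of mice 810, 814, 815, 825 and 828 (adjusted p from 0.0503 to 0.212, difference from -0.32 to -0.59) and in a fit to the 2 groups alone (0.124). Mouse 817 stood apart for several members in HF-SC Tom: Jag1 was at 17.8, 19.8 and 51.5 FPKM and Jag2 at 25.9, 33.0 and 74.8 FPKM in mice 814, 815 and 817. Without mouse 817 there were 7 calls, 2 higher and 5 lower, which added falls of Notch1 (-0.59, adjusted p = 0.0189), Jag1 (-0.80, adjusted p = 0.00241) and Jag2 (-0.81, adjusted p = 0.00547), and 59.4% of all genes were called there. Each of mice 810, 814, 815 and 828 left out gave 2 calls, with 31% to 37.6% of all genes. The endothelial sum differed in the same libraries, at 1461, 1408 and 437.5 FPKM in mice 814, 815 and 817, and its part was not tested.

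In mutant b-KCs no member rose and 4 fell, where 41.6% of all genes tested were called (20.3% higher and 21.3% lower). Dll1 was at 6.37, 6.01 and 11.5 FPKM in b-KC GFP against 25.9 to 32.7 FPKM in b-KC Co, so that the mean was 0.266 times that of controls (-1.83 ± 0.23, adjusted p = 4.11e-05). Its level in b-KC GFP lay within the range of the HF-SC libraries, 5.28 to 13.5 FPKM. Notch2 was at 3.69, 2.92 and 4.90 FPKM against 9.14 to 10.5 FPKM, again with no overlap (-1.21 ± 0.19, adjusted p = 0.000228). Notch3 was at 3.64, 4.16 and 6.37 FPKM, just below the lowest control library at 6.56 FPKM (-0.79 ± 0.28, adjusted p = 0.0347). This call ended with the mouse as a random block (adjusted p = 0.0536), with a pseudocount of 0.1 (0.067), without the filter (0.0626) and without mouse 810, 814, 815 or 828 (0.109 to 0.147). Jag2 was at 34.3, 35.0 and 68.5 FPKM against 84.0 to 92.7 FPKM (-1.03 ± 0.36, adjusted p = 0.0312), and its call ended without mouse 810, 814, 815, 825 or 828 (adjusted p from 0.0633 to 0.171) and without the filter (0.0559).

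The other members overlapped with controls in b-KC GFP or missed the threshold. Hes1 was at 41.4, 49.4 and 76.3 FPKM and Nrarp at 37.8, 38.8 and 26.6 FPKM, on both sides of the control ranges of 55.2 to 67.3 and 27.5 to 32.2 FPKM. Notch1 was at 17.2, 18.9 and 59.4 FPKM, and mouse 817 stood apart from the other two. Without mouse 817 there were 8 calls, 7 lower and 1 higher, among them Notch1 (-0.66, adjusted p = 0.00964), Hes1 (-0.46, adjusted p = 0.0280), Rbpj (-0.55, adjusted p = 0.00406) and, higher, Nrarp (0.32, adjusted p = 0.0344), where 59.4% of all genes were called. Without mouse 810, 814, 815 or 828 there were 2, Dll1 and Notch2, where 20.5% to 34% of all genes were called. Jag1 (16.97 to 31.9 FPKM) overlapped with controls and had a difference of 0.38 ± 0.33. Hey1 was at 0.115, 0.543 and 0.533 FPKM and Rbpj at 7.60, 7.67 and 11.03 FPKM, each below every control library, with adjusted p of 0.346 and 0.0749.

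In non-mutant b-KCs 4 members fell and none rose, where 45.9% of all genes tested were called (22.6% higher and 23.3% lower). Notch2 was at 3.70, 3.30 and 3.51 FPKM in b-KC Tom, a mean 0.349 times that of controls (-1.29 ± 0.19, adjusted p = 7.6e-05). Dll1 was at 7.90, 8.93 and 11.7 FPKM (-1.57 ± 0.23, adjusted p = 8.25e-05). For both genes every library was far below every control library, in Tom as in GFP cells. Notch3 was at 6.17, 5.39 and 3.50 FPKM (-0.71 ± 0.28, adjusted p = 0.0483), and its call ended with the mouse as a random block (0.0730), with a pseudocount of 0.1 (0.0896), without the filter (0.0845) and without mouse 810, 815 or 828 (0.109 to 0.171). Rbpj was at 7.87, 7.56 and 9.92 FPKM (-0.43 ± 0.17, adjusted p = 0.0487). Its call ended without mouse 810, 814, 815, 825 or 828 (0.0677 to 0.206), without the filter (0.0669) and without a trend in the variance (0.0502).

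Notch1, Jag2, Hes1 and Hey1 lay below every control library in b-KC Tom, at 12.3 to 17.5, 41.6 to 67.8, 34.1 to 49.5 and 0.161 to 0.344 FPKM, without passing the test (adjusted p from 0.0507 to 0.0914). Of all 12751 genes tested, 4333 lay below every control library there. With the mouse as a random block Notch1 (0.0418), Jag2 (0.0357) and Hes1 (0.0304) passed, where 46.8% of all genes did. In a fit to the 2 groups alone all 4 passed (0.00191 to 0.029), and so did Jag1 (0.0207), where 56% of all genes passed. Hey1 was also called with a pseudocount of 0.1 (-1.13, adjusted p = 0.0269). Without mouse 817 there were 9 calls, 8 lower and 1 higher, where 57.6% of all genes were called, and without mouse 810, 815 or 828 there were 2, where 30% to 39.3% were. Jag1 was the gene that was higher without mouse 817 (0.62, adjusted p = 0.0126), and with all mice it was at 29.9, 22.5 and 21.4 FPKM, above every control library (0.53 ± 0.33, adjusted p = 0.204). Nrarp was at 23.6, 29.8 and 20.3 FPKM, overlapping with controls (-0.32 ± 0.16, adjusted p = 0.121).

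Markers of other keratinocyte states were also lower in the b-KC libraries of DKO* mice. Of 10 bulge markers, 7 fell in Tom cells and 3 in GFP cells, and of 7 spinous markers 3 fell in each, with no marker of either list higher. The summed level of the bulge markers was 3143 to 3204 FPKM in b-KC Co, 563.2 to 1199 FPKM in b-KC GFP and 211.5 to 733.4 FPKM in b-KC Tom. Most of this sum was Krt15, at 3038 to 3102, 496 to 1137 and 155.4 to 681.1 FPKM, and the median log2 difference over the 10 markers was -0.50 (GFP) and -1.33 (Tom). That of the spinous markers was 7244 to 8954, 5020 to 7031 and 3954 to 7081 FPKM in the same order. Their part in the falls of Dll1, Notch2, Notch3, Jag2 and Rbpj was not tested.

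**Figure D2:**
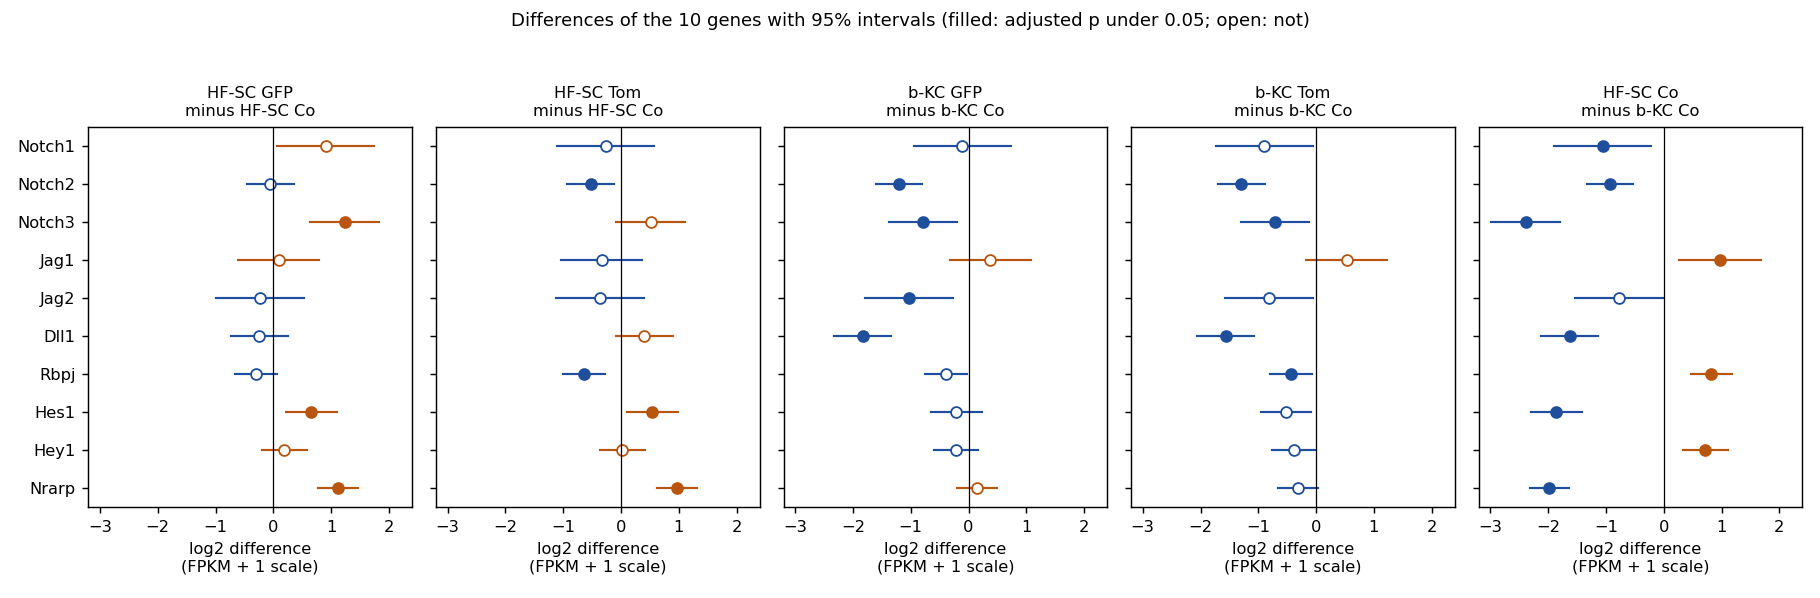
Log2 differences of FPKM + 1 for the 10 genes with 95% intervals in 5 comparisons, filled where the adjusted p was under 0.05. Nrarp and Hes1 are filled to the right in both HF-SC panels, Dll1 and Notch2 are filled to the left in both b-KC panels, and the panel of the control compartments holds 9 filled points.

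Mutant and non-mutant cells of the same mice were compared next. No member was called between GFP+ and Tom+ HF-SCs, where 8.63% of all genes tested were, or between GFP+ and Tom+ b-KCs, where 1.71% were. In HF-SCs 4 members had an unadjusted p under 0.05, against 20% of all genes: Notch1 (1.17 ± 0.39, adjusted p = 0.0844), Notch2 (0.47 ± 0.19) and Notch3 (0.72 ± 0.28) higher and Dll1 (-0.65 ± 0.23, adjusted p = 0.109) lower in GFP cells. Notch1 was higher in the GFP than in the Tom library of each mouse, at 16.3 and 7.58 FPKM in mouse 814, 27.2 and 9.89 in mouse 815, and 40.1 and 17.8 in mouse 817. With the mouse as a random block Notch1 (adjusted p = 0.0122) and Dll1 (adjusted p = 0.0242) were called, and with the mouse as a fixed term Notch1 (adjusted p = 0.0128). Of all genes, 13.6% were called with the random block and 4.93% with the fixed term. Without mouse 817 there were 5 calls, Notch1, Notch2, Notch3 and Jag1 higher and Dll1 lower, where 22.9% of all genes were called. The endothelial sum was at least 437.5 FPKM in each HF-SC Tom library and at most 30.7 FPKM in each HF-SC GFP library. Of 7 spinous markers, 3 were called higher and 0 lower in GFP than in Tom HF-SCs (median log2 difference 1.02), where 361 of 12751 genes were higher. The part of either list in these differences was not tested.

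Between the GFP+ and Tom+ b-KCs only Nrarp had an unadjusted p under 0.05, against 11.5% of all genes, and it was higher in the GFP library of each mouse (37.8 and 23.6, 38.8 and 29.8, and 26.6 and 20.3 FPKM in mice 814, 815 and 817). Its difference was 0.47 ± 0.16 (adjusted p = 0.196), with a call only without mouse 817 (0.51, adjusted p = 0.0326). No member was called with either form of the mouse block. The 95% intervals of the differences in b-KCs came from the fit without a mouse term. They allowed a log2 difference of up to 1.63 in the case of Notch1 (-0.05 to 1.63) and of -0.32 to 0.40 in that of Rbpj, so that equal levels are not shown.

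Whether the change from controls differed between HF-SCs and b-KCs was tested as an interaction. For GFP cells it was more positive in HF-SCs for Notch3, Dll1, Notch2 and Nrarp, 4 of 10 members, where 12.5% of all genes tested were called (7.31% more positive and 5.22% more negative). For Tom cells it was more positive for Dll1, Nrarp, Notch3 and Hes1, 4 of 10, where 15.8% were called (10.3% more positive and 5.58% more negative), and with all mice no member was called in the other direction in either test. These tests share the control libraries with the comparisons above. With the mouse as a random block, Hes1 was also called for GFP cells (0.87, adjusted p = 0.0111) and Notch2 for Tom cells (0.77, adjusted p = 0.0233), which made 5 calls in each, where 22.6% (GFP) and 23.9% (Tom) of all genes were called. Dll1 fell in both b-KC groups, and its HF-SC differences were -0.24 ± 0.23 (GFP) and 0.40 ± 0.23 (Tom). Nrarp rose in both HF-SC groups, and its b-KC differences were 0.15 ± 0.16 and -0.32 ± 0.16. Notch3 rose in HF-SC GFP and fell in b-KC GFP, and its group means there were 3.42 ± 0.872 and 4.72 ± 1.45 FPKM (SD, n = 3), against 0.870 ± 0.315 and 8.82 ± 1.98 FPKM in controls. The compartments were far apart for Notch3 in controls and overlapped in GFP cells (2.80 to 4.42 and 3.64 to 6.37 FPKM). No member's interaction was called for GFP cells without mouse 815, where 3.35% of all genes were, and 7 were without mouse 817, where 30.8% of all genes were. For Tom cells 2, Dll1 and Nrarp, were called without mouse 810, 815 or 828, where 7.04% to 9.32% of all genes were. Without mouse 817 the Notch3 call for Tom cells ended (0.70, adjusted p = 0.0829) and Jag1 was called in the other direction (-1.42, adjusted p = 0.00125).

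A stricter rule, an adjusted p under 0.01 with a log2 difference of at least 2, left Notch3 as the only member. Notch3 met it between the control compartments, as did 5.65% of all genes, and in the interaction for GFP cells, as did 0.863%. No member met it against controls in GFP or Tom HF-SCs or in GFP or Tom b-KCs, where 3.07%, 4.09%, 1.87% and 2.75% of all genes did, or in the interaction for Tom cells (1.98%). Between GFP+ and Tom+ cells the shares of all genes were 1.98% in HF-SCs and 0.0863% in b-KCs, again without a member.

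**Figure D3:**
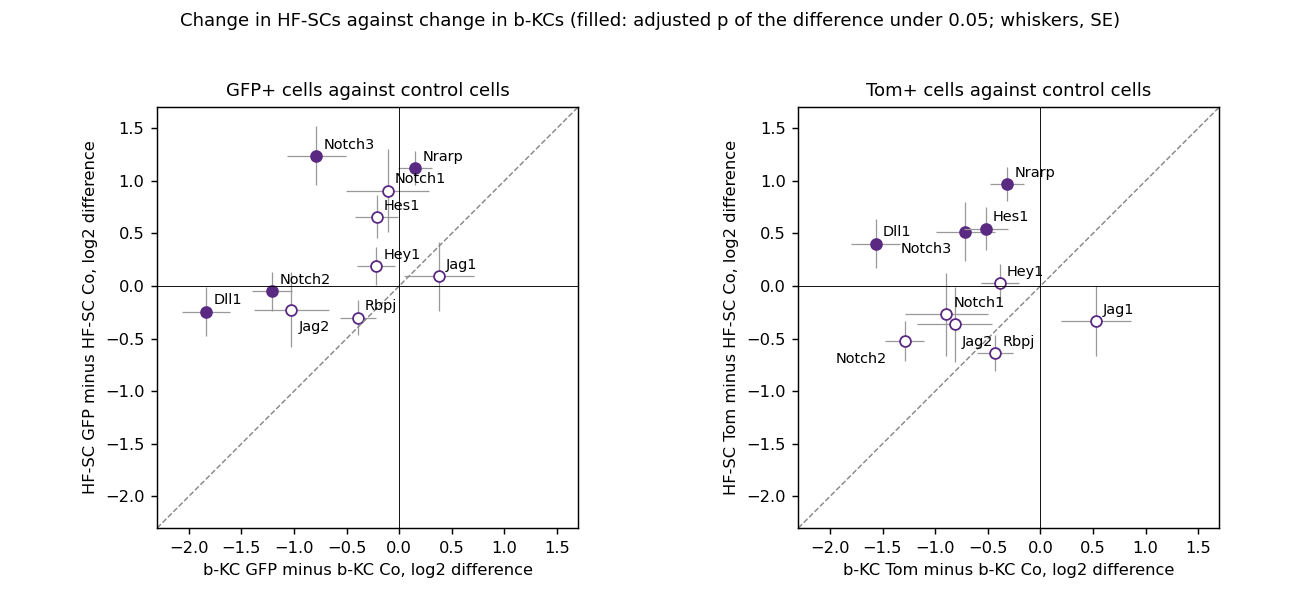
Log2 difference from controls in HF-SCs (vertical axis) against that in b-KCs (horizontal axis) for GFP+ cells (left) and Tom+ cells (right), with SE as whiskers and the line of equal change dashed. Filled points mark members with an adjusted p of the interaction under 0.05, 4 in each panel, and all of them lie above the line.

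The median of long transcripts was below 0 in each comparison of DKO* cells with controls, and 5 members (Notch1, Notch2, Notch3, Jag1 and Rbpj) have a longest annotated transcript of over 5000 bases. Among the 2120 tested genes of 5000 bases or more, the median log2 difference was -0.39 in b-KC GFP, -0.35 in b-KC Tom, -0.22 in HF-SC Tom and -0.13 in HF-SC GFP, and 37.6%, 35.9%, 25.9% and 19.5% of them were called lower, against 21.7%, 23.7%, 22.2% and 20% of all genes with a known length. Genes under 2000 bases had medians of 0.32, 0.29, 0.17 and 0.04. By library, the median of the long genes was -0.51 and -0.50 in b-KC GFP of mice 814 and 815 and -0.18 in mouse 817, and in HF-SC Tom it was -0.41, -0.27 and 0.06. In HF-SC GFP it was -0.30, -0.10 and 0.04, and in b-KC Tom -0.30, -0.46 and -0.29. Mouse 817 thus had the smallest shift in each of the 4 DKO* groups, in b-KC Tom by a small margin to mouse 814.

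With the trend over transcript length removed from each library, an alternative chosen after the data had been seen, the falls of Dll1 and Notch2 in b-KCs were still called: Dll1 at -1.77 (GFP) and -1.52 (Tom), and Notch2 at -0.70 (adjusted p = 0.000411) and -0.83 (adjusted p = 6.42e-05). The rises of Nrarp (1.11 in GFP and 0.96 in Tom cells) and Notch3 (1.35 in GFP cells, adjusted p = 0.000228) in HF-SCs were called as well. So were the falls of Jag2 in b-KC GFP (-0.91, adjusted p = 0.0291) and of Rbpj in HF-SC Tom (-0.49, adjusted p = 0.00378). The falls of Notch3 in b-KC GFP (-0.36, adjusted p = 0.224) and b-KC Tom (-0.33, adjusted p = 0.251), of Rbpj in b-KC Tom (-0.18, adjusted p = 0.227) and of Notch2 in HF-SC Tom (-0.23, adjusted p = 0.130) were not. Neither were the rises of Hes1 in HF-SC GFP (0.61, adjusted p = 0.0748) and HF-SC Tom (0.40, adjusted p = 0.229). Under this alternative Notch1 passed in HF-SC GFP (1.07, adjusted p = 0.00748) and Notch3 in HF-SC Tom (0.74, adjusted p = 0.0144). Hes1 (-0.81), Hey1 (-0.52) and Nrarp (-0.40) passed as lower in b-KC Tom, and Jag1 passed as higher in b-KC GFP (0.67, adjusted p = 0.0368) and b-KC Tom (0.78, adjusted p = 0.0153). Between the control compartments all 10 members then passed, with Jag2 at -0.80 (adjusted p = 0.0374), where 56.5% of all genes passed.

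**Figure D4:**
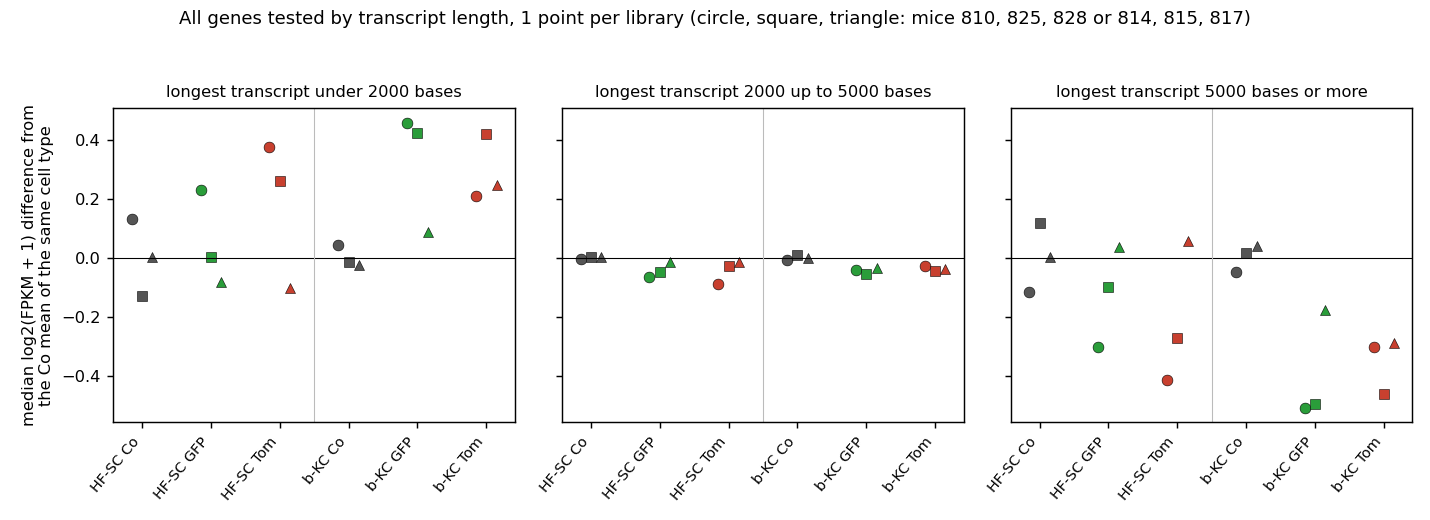
Median log2 difference of FPKM + 1 from the control mean of the same cell type, 1 point per library, for all tested genes with a longest transcript under 2000 bases (left), of 2000 up to 5000 bases (middle) and of 5000 bases or more (right). The b-KC libraries of DKO* mice sit between 0.09 and 0.46 on the left and between -0.51 and -0.18 on the right, and the control libraries between -0.13 and 0.13.

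The other parts of the pathway were read from 59 further genes, of which 47 were tested. More of them fell than rose in each comparison with controls: 15 against 4 in HF-SC GFP, 13 against 5 in HF-SC Tom, 20 against 2 in b-KC GFP and 17 against 4 in b-KC Tom. Of all genes tested, 20% fell and 18.5% rose in HF-SC GFP, 22.1% and 22.3% in HF-SC Tom, 21.3% and 20.3% in b-KC GFP, and 23.3% and 22.6% in b-KC Tom. Their median log2 differences were -0.16, -0.20, -0.42 and -0.31, against -0.05, -0.04, -0.03 and -0.02 over all genes tested. With the length trend removed, the counts were 15 and 7, 12 and 8, 15 and 3, and 13 and 5, where 44.9%, 48.2%, 41.2% and 47.3% of all genes were called in either direction. Without mouse 815, 11 fell and 1 rose in b-KC GFP, where 20.5% of all genes were called, and without mouse 817, 21 fell and 7 rose in HF-SC Tom, where 59.4% were.

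Among the cleavage enzymes, Adam10, the metalloprotease that makes the ligand-dependent cut, rose in both HF-SC populations. It was at 18.5, 23.0 and 19.99 FPKM in HF-SC Co, 42.9, 40.1 and 40.8 FPKM in HF-SC GFP (0.98, adjusted p = 0.000729) and 58.1, 65.9 and 42.6 FPKM in HF-SC Tom (1.38, adjusted p = 2.97e-05). The 2 homologous γ-secretase genes Aph1b and Aph1c fell in all 4 DKO* groups, Aph1b with log2 differences of -0.73, -0.84, -1.014 and -1.015 in GFP then Tom HF-SCs and GFP then Tom b-KCs. Reads shared between these near copies could be split by the counting, so that their separate levels are uncertain. Aph1c reached 1 FPKM, the level for testing, only in HF-SC Co (1.52, 1.58 and 1.94 FPKM), so that its HF-SC falls are in part set by the filter. In b-KC Co it was at 0.748 to 0.792 FPKM. The Aph1c falls in both b-KC groups were not called with the length trend removed, and that in b-KC Tom was not called without mouse 814 (adjusted p = 0.0538).

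Of the 5 glycosyltransferases tested, 2 fell in each GFP group, 1 in Tom HF-SCs and 2 in Tom b-KCs, and 1 rose in each Tom group. Of the 11 ubiquitin ligases and Numb genes tested, 5 fell in GFP HF-SCs, 4 in Tom HF-SCs and 6 in each b-KC group, and 1 rose in each HF-SC group. The shares of all genes that fell were 20% and 22.1% in GFP and Tom HF-SCs and 21.3% and 23.3% in GFP and Tom b-KCs. Those that rose were 18.5%, 22.3%, 20.3% and 22.6% in the same order. Lfng, a Fringe glycosyltransferase that tunes the response of receptors to Delta and Jagged ligands, was at 45.7, 35.6 and 26.9 FPKM in HF-SC Co and 22.9, 23.7 and 22.8 FPKM in b-KC Co. It fell in every DKO* group, most in b-KCs, where it was at 8.10, 7.80 and 7.33 FPKM in GFP cells (-1.47, adjusted p = 0.00152) and 4.96, 7.79 and 12.3 FPKM in Tom cells (-1.45, adjusted p = 0.00125). Its HF-SC calls ended without mouse 810, 814, 815 or 825 (0.0671 to 0.123) or in a fit to the 2 groups alone (0.0517) in GFP cells, and without mouse 810, 815 or 825 (0.0905 to 0.146) or without the filter (0.0512) in Tom cells. Mib2, a ubiquitin ligase that promotes ligand endocytosis, fell in the same groups, with differences of -1.04, -1.36, -0.92 and -1.12 in GFP then Tom HF-SCs and GFP then Tom b-KCs. Numb, an inhibitor of Notch, fell in these 4 groups as well, with differences from -0.51 to -0.69. Dtx4, a Deltex family gene, rose in HF-SC GFP, from 0.533 to 0.649 FPKM in controls to 2.71 to 3.65 FPKM (1.37, adjusted p = 0.000516), and its b-KC Co level was 5.29 to 6.01 FPKM. Dtx4 also rose in HF-SC Tom, to 1.31, 1.18 and 4.01 FPKM (0.90, adjusted p = 0.00908), a call that ended in a fit to the 2 groups alone (0.0661).

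Cofactors of RBPJ divided by gene. Ctbp2, a corepressor gene, rose in all 4 DKO* groups and most in b-KCs, from 7.01, 6.10 and 5.88 FPKM in b-KC Co to 21.1, 19.2 and 16.4 FPKM in b-KC GFP (1.44, adjusted p = 1.41e-06) and 18.8, 18.8 and 16.2 FPKM in b-KC Tom (1.37, adjusted p = 1.4e-06). Its HF-SC Tom call ended without mouse 814, 815, 825 or 828 (0.0634 to 0.0914) and in a fit to the 2 groups alone (0.0817). Of the 11 corepressors, 3 fell in b-KC GFP (Ncor1, Spen and Tle2), and of the 8 coactivators 4 fell there (Maml1, Maml3, Crebbp and Ep300), where 21.3% of all genes fell. Kat2a, a coactivator with histone acetyltransferase activity, rose there (0.57, adjusted p = 0.0169), a call that ended without mouse 815 or 825. The calls of Spen, Tle2, Maml1, Crebbp and Ep300 also ended without 1 or more of the mice, and those of Ncor1 and Maml3 did not. With the length trend removed, Maml3 was the only one of these 7 lower genes still called in b-KC GFP. Between the control compartments 14 of the 47 were higher and 11 lower in HF-SCs, where 24.6% of all genes were higher and 27.3% lower, among them the corepressor Tle2 (1.97, adjusted p = 9.43e-09) and the Deltex family gene Dtx3 (2.05, adjusted p = 8.24e-08), both higher in HF-SC Co.

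In HF-SC Tom, several pathway genes were high in the libraries with the most endothelial RNA. Mfng, a second Fringe gene, was at 11.7, 12.3 and 3.24 FPKM in mice 814, 815 and 817 against 0.470 to 0.584 FPKM in HF-SC Co (2.55, adjusted p = 3.11e-05), and Psen2, a presenilin gene of γ-secretase, at 14.8, 14.3 and 4.45 FPKM against 3.0 to 4.13 FPKM (1.23, adjusted p = 0.00296). Outside HF-SC Tom, Mfng reached 1 FPKM, the level for testing, only in b-KC Co of mouse 810 (2.02 FPKM). Its calls for HF-SC Tom are thus in part set by the filter. Dll4 and Notch4, a ligand and a receptor known from blood vessels, were below the level for testing. Dll4 was at 2.4, 2.61 and 0.157 FPKM and Notch4 at 0.879, 1.04 and 0.335 FPKM in HF-SC Tom, and neither exceeded 0.122 FPKM in any other library. All 12 endothelial markers rose in HF-SC Tom, and the part of endothelial RNA in these levels was not tested. Sox17 and Erg reached 1 FPKM only in HF-SC Tom, and Cldn5 only there and in b-KC Tom. Their rises are thus in part set by the filter. Mfng and Psen2 were also the only 2 of the 47 called between mutant and non-mutant HF-SCs, both lower in GFP cells. Adam10 was likewise highest in HF-SC Tom of mice 814 and 815. In a fit to the 2 groups alone Psen2 was not called against controls (0.0561) or against GFP cells (0.0679).

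Of the other genes of the Hes and Hey families, Hes6 alone was tested. It was at 15.3, 11.2 and 14.3 FPKM in HF-SC Co and 13.3 to 13.6 FPKM in b-KC Co. It fell in HF-SC GFP, to 7.08, 6.62 and 6.81 FPKM (-0.89, adjusted p = 0.000225), in HF-SC Tom, to 9.74, 8.35 and 6.80 FPKM (-0.65, adjusted p = 0.00216), and in b-KC Tom, to 7.25, 10.5 and 9.23 FPKM (-0.55, adjusted p = 0.00688). Its direction in HF-SCs was thus opposite to that of Hes1 and Nrarp. In b-KC GFP Hes6 was at 9.76 to 11.2 FPKM (-0.35, adjusted p = 0.0642), a fall that was called with the length trend removed (-0.65, adjusted p = 0.00103), in a fit to the 2 groups alone (0.0283) and without mouse 817 (0.0353). The untested Hes2, Hes3, Hes5, Hes7, Hey2 and Heyl were at most at 0.218 FPKM in any library, and Hes3 was listed at 0 in all 18.

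**Figure D5:**
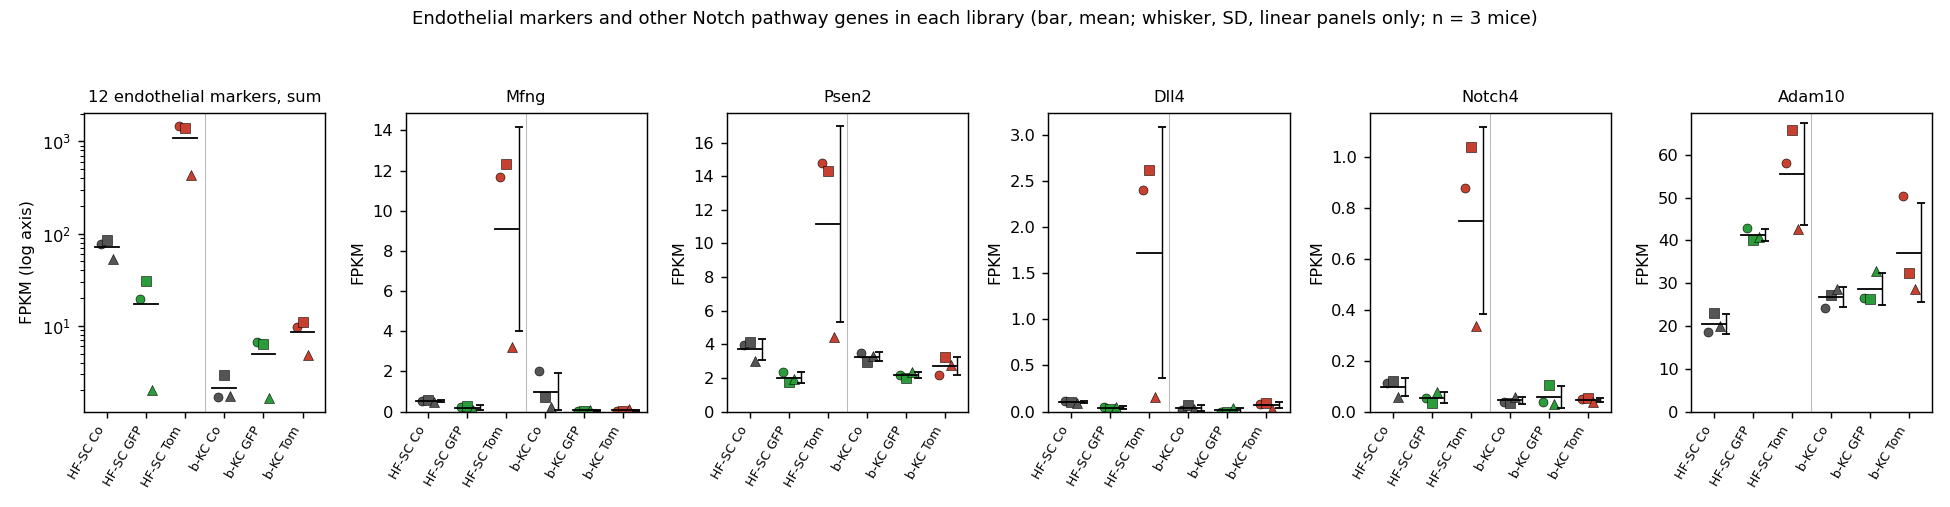
Summed FPKM of 12 endothelial markers (left, log axis) and FPKM of Mfng, Psen2, Dll4, Notch4 and Adam10 (linear axes) in each of the 18 libraries, with means as bars and SDs as whiskers. Mfng, Psen2, Dll4 and Notch4 are highest in HF-SC Tom of mice 814 and 815, where the endothelial sum is 1461 and 1408 FPKM, and Adam10 is above controls in all 6 DKO* HF-SC libraries.

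The levels of the members over all 18 libraries were last set against each other and against the other tested genes, by Pearson's r of log2(FPKM + 1). These values are a description, since the libraries share mice, controls and the gap between the compartments. Among the members r was highest for Hes1 with Nrarp and for Notch3 with Hes1 (0.875 each), and lowest for Rbpj with Nrarp (-0.84), the nuclear factor being highest in the controls in which this target was lowest. The 3 genes outside the list with the highest r were Pvrl2, Tmprss4 and Abhd5 for Nrarp (0.983, 0.975 and 0.972) and Npl, Wnt3 and Gdpd2 for Hes1 (0.975, 0.968 and 0.96). For Notch3 they were Prom2, Bcl2l13 and Zfp750 (0.958, 0.956 and 0.955), for Notch2 Tollip, Cyth3 and Ppl (0.963, 0.959 and 0.955), and for Notch1 Kremen1, Prnp and Sec24a (0.904, 0.893 and 0.891). For the ligands they were Tgfbr3, F2r and Rhobtb1 with Dll1 (0.954, 0.952 and 0.939), Mapkbp1, Spg7 and Slc38a10 with Jag2 (0.974, 0.967 and 0.962), and Suz12, Orai2 and Dsg3 with Jag1 (0.904, 0.904 and 0.886). Rbpj was most like Boc, Braf and Gli3 (0.975, 0.975 and 0.974), and Hey1 most like Mtmr7, Gm15910 and Zfp281 (0.937, 0.931 and 0.93).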

How the data were processed

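RNA of 18 sorted samples (4 to 10 ng each) was amplified with an oligo(dT) kit, sequenced without strand information, and mapped by the authors with TopHat and Bowtie 1.0.0 to NCBI37/mm9. The deposited values are FPKM per gene symbol, for which the submitters' processing notes name Cufflinks 2.2.1 and also list GRCm38 and mm10. Values were analysed as log2(FPKM + 1) with limma 3.58.1 in R 4.3.3, for 12751 genes that reached 1 FPKM in 3 or more libraries. The fit had 6 group means, and the moderated test used a trend of the variance over expression. A gene was called at a Benjamini-Hochberg adjusted p under 0.05 over all genes tested, within each of 7 comparisons between 2 groups and 2 interactions. The code was tested on simulated data. FPKM are not counts, so depth was estimated from the spacing of low values. Intervals come from the fit without a mouse term. For groups from the same mice they are therefore not intervals of the within-mouse difference.

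The members and gene lists were chosen with earlier results of these data known, and every member is named. Of the other pathway genes, 1 is not reported here. Other pathway genes came from fixed role lists, as counts, and could be named where a comparison between 2 groups called them. Those given with values were picked from these, and Dll4, Notch4 and the untested targets were added, after their values were seen. For each member the 3 genes with the highest Pearson r over 18 libraries are named. Replicates are separate mice. Libraries of one mouse share the animal, and their deviations from the group means correlated at 0.0838 to 0.7 (0.204 to 0.317 in controls). The mouse was therefore also fitted as a random block (consensus correlation 0.274) or, within mice, as a fixed term, and those values stand beside the members' results whose call they change. Further alternatives were a pseudocount of 0.1, no filter, a fit to the compared groups alone, eBayes without a trend, median-ratio scaling, a stricter call (adjusted p under 0.01 and a log2 difference of at least 2), and leaving out each mouse. The median-ratio factors were 1.001 to 1.017, so that this scaling could change little. Removal of a lowess trend over the longest transcript (span 0.3, lengths for 92.8% of the tested symbols) was added after the data had been seen. Promoter sequence was from RefSeq, and figures were drawn with Matplotlib 3.10.9.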

Additional observations from a re-analysis of the deposited data

Results flagged for a closer look

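The change from controls differed between HF-SCs and b-KCs by the interaction test of limma for 8 results, in each case more positive in HF-SCs. For GFP cells the difference between the 2 changes was 2.02 for Notch3 (adjusted p = 0.00371), 1.59 for Dll1 (0.00503), 1.16 for Notch2 (0.0103) and 0.97 for Nrarp (0.0116), on the log2 scale of FPKM + 1. Without mouse 815 these 4 had adjusted p of 0.0646, 0.087, 0.142 and 0.0544, and the Nrarp call also ended without mouse 810 (0.0701) or 814 (0.0524). For Tom cells the difference was 1.97 for Dll1 (adjusted p = 0.000748), 1.29 for Nrarp (0.00126), 1.06 for Hes1 (0.021) and 1.23 for Notch3 (0.0461). The Dll1 and Nrarp calls for Tom cells held without any 1 mouse. The Hes1 call held only without mouse 817, and ended without each of the other mice (0.0522 to 0.0815). The Notch3 call ended without mouse 810, 815, 817 or 828 (0.0829 to 0.193), with a pseudocount of 0.1 (0.0533), without the filter on low values (0.0724) and in a fit to the compared groups alone (0.0621).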

How the results depend on the processing

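No called member changed direction under any alternative run. Under the stricter call, 0 members passed in each comparison of GFP or Tom cells with controls and in the interaction for Tom cells, and 1 passed between the controls and in the interaction for GFP cells, Notch3 both times. A fit to the compared groups alone gave 2 calls in HF-SC Tom and 9 in b-KC Tom against 4 each, where 32.3% and 56% of all genes were called against 44.4% and 45.9%. No filter gave 2 in either b-KC comparison with controls against 4 each, where 26.5% (GFP) and 29.9% (Tom) of all genes were called. With the mouse as a random replicate block, 2 members were called between GFP+ and Tom+ HF-SCs, with the fixed block 1, and with the length trend removed 2, against 0, where 13.6%, 4.93% and 10.7% of all genes were called against 8.63%. Leaving out 1 mouse gave 2 to 5 calls in HF-SC GFP, 2 to 7 in HF-SC Tom, 2 to 8 in b-KC GFP, 2 to 9 in b-KC Tom, 0 to 5 between GFP+ and Tom+ HF-SCs, 0 to 1 between GFP+ and Tom+ b-KCs, 7 to 10 between the controls, and 0 to 7 and 2 to 4 in the interactions for GFP and Tom cells. The shares of all genes called moved over 25.8% to 51.5%, 31% to 59.4%, 20.5% to 59.4%, 30% to 57.6%, 3.33% to 22.9%, 0.00784% to 6.67%, 37.9% to 63.8%, 3.35% to 30.8% and 7.04% to 25.4% in the same order. The cause was not tested.

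Values that were not called changed sign in these cases. With the length trend removed, Notch2 in HF-SC GFP was at 0.14, Notch1 in HF-SC Tom at 0.00056, Hey1 in HF-SC Tom at -0.019, Notch1 in b-KC GFP at 0.37 and the GFP interaction of Rbpj at -0.14. Leaving out 1 mouse gave ranges of -0.13 to 0.040 (Notch2), -0.087 to 0.34 (Jag1) and -0.40 to 0.077 (Jag2) in HF-SC GFP, -0.085 to 0.18 (Hey1) in HF-SC Tom and -0.66 to 0.20 (Notch1) in b-KC GFP. Between GFP+ and Tom+ HF-SCs they were -0.13 to 0.41 (Jag2) and -0.12 to 0.37 (Hey1), and between GFP+ and Tom+ b-KCs -0.067 to 0.19 (Notch2), -0.47 to 0.20 (Notch3), -0.50 to 0.17 (Jag1) and -0.013 to 0.080 (Rbpj).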
